A study of Arabidopsis thaliana with 6 samples.

Results

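The transcripts described here were far lower on 1 array, coded A3-1 in its title, than on each of the other 5 arrays of the series. There were 23 of them among 22746 probe sets. Members were chosen by their measured intensities, after every value under 10 units had been raised to 10. A member had at least 50 units on each of the other 5 arrays. On A3-1 it stood at or below 25% of the lowest of those 5. On the cdpk6-yfp line 1 array it was at least the lower control value divided by 1.5, so that transcripts that were also clearly low in line 1 were left out. COR27, AT4G33980, AT1G07050 and GI, which belong to the clock-regulated genes, were set aside by the rule. The low A3-1 values are therefore the basis of the choice and are given as a description, without a test. A3-1 has no replicate.

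The series asked about the role in development of CDPK6, a calcium-dependent protein kinase, by hybridising seedling RNA to Affymetrix ATH1 arrays. All plants were whole seedlings of Arabidopsis thaliana Col-0 from a growth room (22 °C, light for 16 h per day), pooled from about 40 plants. The control, called aeq+, carries an aequorin transgene (2 arrays, titled Kan-1 and Kan-2), and a cdpk6-yfp transgene is carried by line 4 (2 arrays) and by line 1 (1 array, coded A3-2). The labels of A3-1 conflict, since its strain and modification entries give cdpk6-yfp line 1 whereas its title (Kan-3) and source name follow the control, and it was placed in no group. Each transgenic line is 1 line, and the promoter of the transgene, the age of the seedlings and the time of harvest are not given in the sources used here. Nothing says whether the pools came from separate sowings, and a p-value here reflects only how far these pools differ, which may be technical.

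Plant transcripts can be short-lived, and many of them change over the day or within minutes of cold, touch or wounding, so that a whole-seedling sample records the state of such genes at the moment of freezing. The 10 members with a gene name encode proteins of unrelated families. They are a J-domain chaperone and a cyclophilin, which act on the folding of other proteins; a transporter-like protein, a small membrane protein of the RCI2 family and a cytochrome b561 protein, which sit in or at membranes; a B-box zinc finger protein, which belongs to the transcriptional regulators; an inhibitor-like protein of cell wall and sugar enzymes; a cytidine deaminase-like enzyme; a phosphoprotein-like protein; and a protein of unknown function. A further 11 members had no gene name in the platform annotation used, and 2 matched several genes and are given by probe set only.

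Across the members, A3-1 read between 4.4 and 258 intensity units with a median of 24.5, while the lowest of the other 5 arrays lay between 60 and 2166.8 with a median of 163.2. With the floor applied, the lowest of the other arrays exceeded A3-1 by 4.05-fold to 23.3-fold, with a median of 6.58-fold. On A3-1, 15 of the 23 members read under 30 units, 3 of them under the floor of 10, and 3 read over 100. The other 5 arrays lay close together by comparison, with a highest value at most 2.05 times the lowest (median 1.60). Over all 9329 probe sets at 50 units or more on those arrays the median of this ratio was 1.33.

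**Figure D1:**
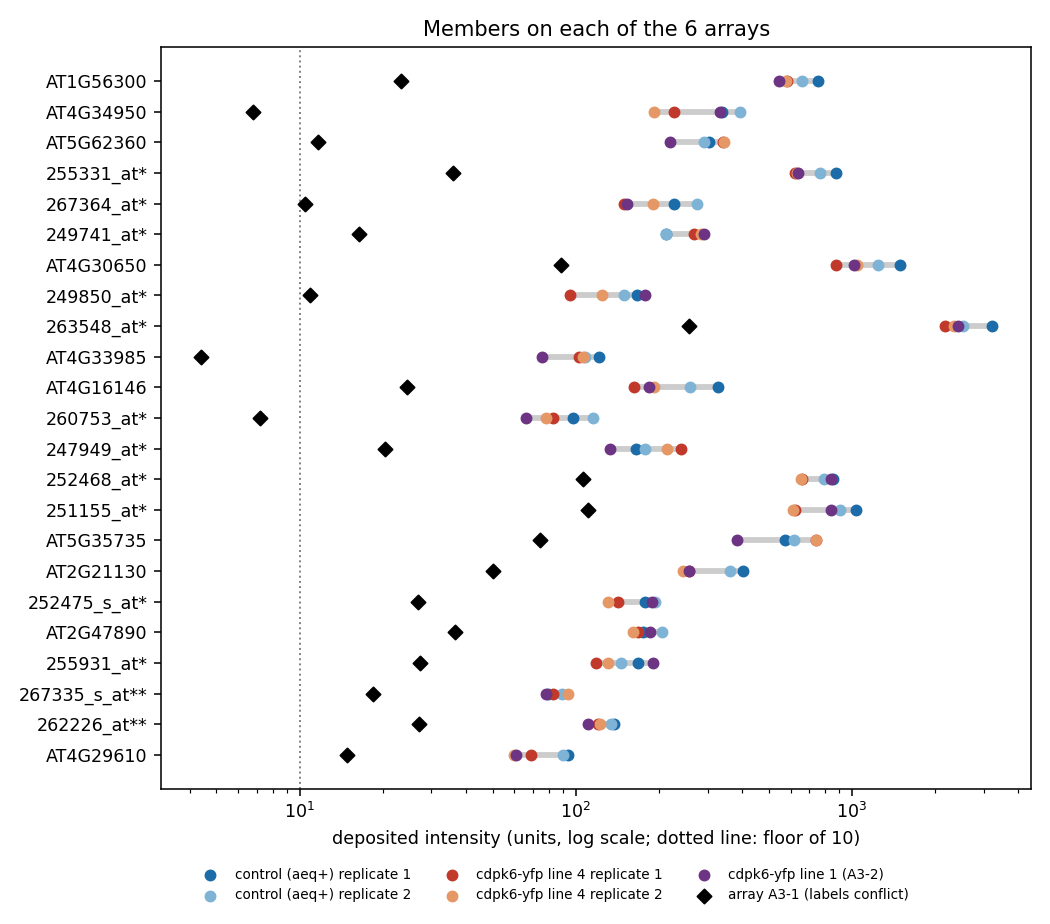
Deposited intensity (log axis) of the 23 members on each of the 6 arrays, ordered by the ratio of A3-1 to the lowest other array; circles are the 5 grouped arrays with a grey bar over their range, diamonds are A3-1, 1 asterisk marks a probe set with no gene name and 2 asterisks one that matches several genes. Every diamond lies to the left of its bar, as the rule requires, and the bars span at most 2.05-fold.

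Members that act on protein folding were AT1G56300 and AT2G21130. AT1G56300 encodes a protein with a J domain, the part by which such proteins call on the HSP70 chaperone. It read 751.2 and 658.3 in the control, 580.1 and 578.9 in line 4, 546.3 in line 1 and 23.4 on A3-1. The lowest of the other arrays was 23.3 times A3-1, the largest ratio among members that read above the floor on A3-1. AT2G21130, a cyclophilin that turns peptide bonds next to proline, read 401.7 and 363.1 in the control, 257.7 and 245.1 in line 4, 257.8 in line 1 and 50.0 on A3-1. Here the control arrays were the highest, line 4 and line 1 lay together below them and A3-1 was 4.90-fold below the lowest. Of 3 other cyclophilin genes that were named on the array, none was low on A3-1 in this way, with log2 differences from the median of the other 5 arrays between -0.42 and 0.14. AT3G55920, at 40.9 to 63.8 on the other arrays, missed the minimum of 50 and could not have met the rule. AT4G34960 and AT3G63400 were also much dimmer there than AT2G21130, at 51.0 to 69.1 and 76.2 to 92.5. These relatives were picked after the members were known.

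Of the membrane proteins, AT4G34950, of the major facilitator superfamily of transporters, read 338.1 and 393.8 in the control, 227.3 and 192.2 in line 4, 331.8 in line 1 and 6.8 on A3-1. Since 6.8 lies under the floor, the lowest of the other arrays was at least 19.2-fold higher. Line 4 lay below both controls at this gene and the line 1 array close to them. AT4G30650 encodes a small hydrophobic protein of the RCI2 family, which is named for genes that respond to low temperature. Its values were 1495.8 and 1240.7 in the control, 877.6 and 1040.1 in line 4, 1021.1 in line 1 and 88.4 on A3-1, so that A3-1 was 9.93-fold below the lowest of the other 5. AT5G35735, an auxin-responsive family protein with a cytochrome b561 domain, read 570.9 and 618.9 in the control, 738.7 and 740.3 in line 4, 382.1 in line 1 and 74.2 on A3-1. Line 4 held the highest values here and the line 1 array the lowest of the 5.

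AT4G30650 lies next to AT4G30660, another gene of the RCI2 family, in the RefSeq gene table. AT4G30660 read 810.0 and 686.0 in the control, 494.9 and 645.3 in line 4, 880.5 in line 1 and 188.6 on A3-1. At 38.1% of the lowest of the other arrays it was low on A3-1 without meeting the rule. Of the other 3 named genes of the family, AT2G24040 was not low on A3-1. It read 72.1 to 102.5 on the other arrays, and A3-1 differed from their median by 0.14 on the log2 scale. For AT2G38905 and AT1G57550 these differences were 0.22 and 0.51. Both genes were dim on the other arrays, at 18.8 to 56.6 and 16.8 to 26.7. With their lowest values this close to the floor, they could not have shown a fall of the size the rule requires. The families were looked up after the members were known.

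AT2G47890 encodes a CONSTANS-like protein with a B-box zinc finger and a CCT domain, both of which are found in regulators of light responses and flowering. It read 175.7 and 205.0 in the control, 168.0 and 160.7 in line 4, 186.1 in line 1 and 36.5 on A3-1. The 5 grouped arrays stayed within 1.28-fold of each other at this gene, and A3-1 was 4.40-fold below the lowest of them. AT4G16146, related to a cAMP-regulated phosphoprotein of animals, read 328.0 and 258.9 in the control, 163.2 and 191.5 in line 4, 184.4 in line 1 and 24.5 on A3-1. Both controls lay above line 4 and line 1, and A3-1 was 6.66-fold below the lowest.

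AT5G62360, whose protein belongs to the inhibitors of invertases and pectin methylesterases, read 304.4 and 290.5 in the control, 339.9 and 343.4 in line 4, 219.4 in line 1 and 11.7 on A3-1. The ratio of the lowest other array to A3-1 was 18.8. AT4G29610, of the cytidine and deoxycytidylate deaminase family, read 93.4 and 90.0 in the control, 68.7 and 60.0 in line 4, 61.0 in line 1 and 14.8 on A3-1. Its ratio of 4.05 was the smallest of all members.

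AT4G33985, a protein of unknown function, read 121.3 and 108.4 in the control, 102.5 and 106.1 in line 4, 75.5 in line 1 and 4.4 on A3-1, which is at least 7.55-fold below the lowest against the floor of 10. Among protein-coding genes of the RefSeq table its neighbour on chromosome 4 is AT4G33980, one of the genes that the rule sets aside. AT4G33980 (COR28), which like COR27 acts in the clock and in freezing tolerance, read 244.0 and 282.4 in the control, 165.8 and 136.7 in line 4, 235.8 in line 1 and 4.0 on A3-1.

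Named members lay on chromosome 4 (5 genes), 2 (2 genes), 5 (2 genes) and 1 (1 gene). The other members were not placed, and no share of all probe sets per chromosome is given beside these counts. No clustering can therefore be read from them. Of the protein-coding genes directly beside the named members, 8 were named and measured. AT4G33980 and AT4G30660 were the 2 at least 2-fold lower on A3-1 than the median of the other arrays, and none was 2-fold higher. AT4G33980 met every condition of size in the rule and was set aside only by name, so its low value is no separate observation. The other 6 neighbours differed from that median by -0.68 to 0.19 on the log2 scale. The background of this count is 4.54% of 13647 probe sets at least 2-fold lower on A3-1 and 2.17% at least 2-fold higher.

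The 11 members without a gene name read 7.2 to 258 units on A3-1, and the lowest of their other arrays was 65.8 to 2166.8. Ratios of the lowest other array to A3-1 ran from 4.33 to 17.3 with a median of 6.58. The largest of these ratios belonged to probe set 255331_at, at 873.3 and 769.0 in the control, 623.9 and 633.2 in line 4, 638.2 in line 1 and 36.0 on A3-1. Probe set 263548_at kept 258.0 units on A3-1, well off the floor, against 3201.7 and 2531.0 in the control, 2166.8 and 2347.6 in line 4 and 2426.2 in line 1. Its ratio of 8.40 thus does not rest on a value near 0. Probe set 249741_at departed from most members in that the control held the lowest values, with 211.8 and 212.3 against 267.6 and 285.0 in line 4, 292.2 in line 1 and 16.4 on A3-1. Among the brighter unnamed members, 251155_at read 1031.3 and 905.7 in the control, 619.4 and 612.6 in line 4, 842.0 in line 1 and 110.4 on A3-1. Probe set 252468_at read 856.5 and 790.0 in the control, 660.0 and 653.8 in line 4, 843.1 in line 1 and 105.8 on A3-1. At both, line 4 lay below the other grouped arrays, and A3-1 kept more than 100 units.

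The other unnamed members read between 65.8 and 274.2 units on the grouped arrays. Probe set 267364_at read 226.8 and 274.2 in the control, 149.4 and 190.5 in line 4, 153.4 in line 1 and 10.5 on A3-1. Probe set 249850_at read 166.8 and 150.0 in the control, 95.4 and 124.0 in line 4, 178.4 in line 1 and 10.9 on A3-1. Both sat next to the floor on A3-1, with line 4 below the controls, and they differed in line 1, which lay among the low values at the former and above both controls at the latter. Probe set 247949_at read 165.4 and 177.4 in the control, 239.8 and 213.6 in line 4, 133.1 in line 1 and 20.4 on A3-1. Probe set 252475_s_at read 178.3 and 193.8 in the control, 141.7 and 130.9 in line 4, 188.9 in line 1 and 26.9 on A3-1. Line 4 thus held the highest values at the former and the lowest of the grouped arrays at the latter. Probe set 255931_at read 168.4 and 145.3 in the control, 118.7 and 130.8 in line 4, 190.0 in line 1 and 27.4 on A3-1. Probe set 260753_at read 98.1 and 115.3 in the control, 82.9 and 78.0 in line 4, 65.8 in line 1 and 7.2 on A3-1, so that its lowest grouped array was at least 6.58-fold higher.

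Both probe sets that match several genes lay near the threshold, 262226_at at 27.1 on A3-1 and 111.1 to 137.3 on the others, and 267335_s_at at 18.4 and 78.3 to 94.1.

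Just inside the threshold of 25% of the lowest other array were the members 267335_s_at, whose lowest other array was 4.26 times A3-1, 262226_at at 24.4% and AT4G29610 at 24.7%. Just outside were the unnamed probe sets 262629_at at 25.2% and 266225_at at 25.6%, and PDC2, a gene for pyruvate decarboxylase, at 25.8%. PDC2 read 325.6 and 308.0 in the control, 282.3 and 215.0 in line 4, 224.2 in line 1 and 55.4 on A3-1. The threshold therefore does not fall in a gap between members and other probe sets.

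**Figure D2:**
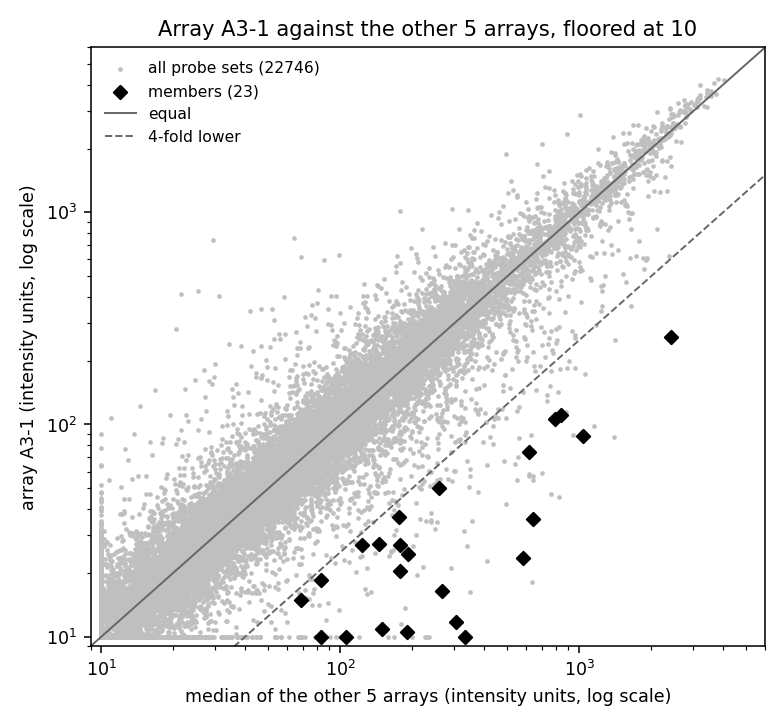
Intensity on A3-1 against the median of the other 5 arrays, both on log axes and floored at 10, for 22746 probe sets (grey) and the 23 members (diamonds); the solid line marks equal values and the dashed line a 4-fold lower A3-1. The members lie below the dashed line, which follows from the rule, and grey points below it failed the minimum of 50, the ratio to the lowest array or the line 1 condition, or were set aside by name.

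Of 9329 probe sets with at least 50 units on the other 5 arrays, 32 (0.343%) were at or below 25% of the lowest on A3-1. The line 1 condition removed 7 of these, AT1G07050, CML38, AT1G20030, AT1G11210, COR15B, AT1G78995 and AT2G39920, which read between 26.8% and 66.5% of the lower control in line 1. COR27 and AT4G33980 met every condition of size and were set aside by name, which leaves the 23. The line 1 array also limited the 32, as 1 of the 5 arrays whose lowest value set the ratio and the minimum. When line 1 took no part in the rule, 137 probe sets met it, all 23 members among them. The comparison that gave the 32 was also made for each of the other arrays in turn against the remaining 5. Control replicate 2 had 1 probe set that low and each of the other 4 arrays had 0. Each control and line 4 array had its own replicate among the remaining 5, so a difference shared by its group could not be counted. For line 1, A3-1 was among the remaining 5, so transcripts low on both could not be counted. These counts are therefore not a like-for-like background for A3-1. Between replicates, 1 of 11293 probe sets with at least 50 units on 1 array of the pair was 4-fold apart in the control and 0 of 11081 in line 4. No p-value belongs to these counts.

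The scatter between replicates shows how far readings of the same group differed between pools. A3-1 has no replicate, so its own scatter is not known. Replicates of the control differed by up to 0.38 on the log2 scale at 95% of probe sets with a mean of 100 to 300 units and by up to 1.62 at 10 to 30 units. In line 4 these percentiles were 0.32 and 1.11. If A3-1 scattered alike, a reading of a member in its lower range was much less exact than the readings on the other arrays. On the floored log2 scale the members' differences of A3-1 from the control mean ran from -5.19 to -2.19 with a median of -3.41.

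General measures of the arrays were compared next. The median intensity was 45.45 on A3-1 and 44.2 to 46.4 on the others, and the scanner background was 95.64 against 89.78 to 93.79 on 4 of the others and 142.62 on control replicate 2. For actin, the 3′ probes read 4.67 times the 5′ probes on A3-1 and 3.19 to 4.30 times on the others, and for GAPDH 1.67 times and 1.43 to 1.79 times; high values mark degraded RNA. The ubiquitin probes gave 2.61 times on A3-1 and 2.42 to 3.26 times on the others. A3-1 was thus the highest for actin and within the range for GAPDH and ubiquitin. The 25S ribosomal RNA probe set read 2189.3 on A3-1, 1073.1 in line 1, 275.4 and 915.9 in line 4 and 282.1 and 277.2 in the control. The part of RNA quality in the low readings was not tested. Across 13647 probe sets, which are not independent replicates, A3-1 correlated with line 1 at r = 0.935, with the control arrays at 0.903 and 0.895 and with the line 4 arrays at 0.879 and 0.882, on floored log2 values. Line 1 correlated more closely with the control arrays, at 0.945 and 0.938, than with A3-1. Replicates correlated at 0.983 in the control and 0.990 in line 4.

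The replicated comparison of the series, line 4 against the control, uses no value of A3-1 and asks how the members behaved where replicates exist. The rule did not use the difference between line 4 and the control, but it did use the levels of these arrays, through the minimum of 50 units, the lowest of the 5 arrays and the lower control. With limma, 14 of the 23 members passed an adjusted p of 0.05 over all 13647 probe sets kept, 11 of them lower and 3 higher in line 4. These are 60.9% of the members, against 15.5% of all probe sets kept and 17.1% of those with at least 50 units on the 5 grouped arrays. For falls the shares were 47.8% of the members against 7.37% of all and 8.65% of the latter, and for rises 13.0% against 8.1% of all. The median difference was -0.34 on the log2 scale over the members and -0.02 over the 9329 probe sets at 50 units or more. All differences of the members were under 2-fold.

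AT4G34950, the transporter-like gene, fell the most in line 4, by 0.80 ± 0.11 on the log2 scale (SE, n = 2 against 2, limma adjusted p = 0.00129). AT4G16146, the phosphoprotein-like gene, fell by 0.72 ± 0.12 (limma adjusted p = 0.00482), and the cyclophilin gene AT2G21130 fell by 0.60 ± 0.08 (limma adjusted p = 0.00162). At these genes both line 4 arrays lay below both controls. The RCI2 family gene AT4G30650 and the deaminase-like gene AT4G29610 each fell by 0.51 (adjusted p = 0.0170 and 0.0301 in limma). The other 6 falls belonged to unnamed probe sets, among them 251155_at at -0.65 ± 0.09 (limma adjusted p = 0.00130), and ranged from -0.65 to -0.32.

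Rises in line 4 were found for the cytochrome b561 gene AT5G35735, at 0.32 ± 0.08 (limma adjusted p = 0.0251), and for the unnamed probe sets 249741_at and 247949_at, at 0.38 and 0.40. Members that did not pass numbered 9, of which 7 had negative differences. Among them were the J-domain gene AT1G56300 at -0.28 (limma adjusted p = 0.0561), the inhibitor-like gene AT5G62360 at 0.20 (0.111), the B-box gene AT2G47890 at -0.21 (0.193) and AT4G33985 at -0.14 (0.442).

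The number of members that passed depended on the arrays and on the fit. Leaving out replicate 1 of line 4 gave 6 (7.75% of all probe sets passed), and leaving out its replicate 2 gave 8 (7.52% of all). When dim probe sets were kept the number was 6 (5.52% of all probe sets passed), and without a trend in the variance it was 3 (8.18% of all). AT4G34950, AT4G16146, AT2G21130 and probe set 251155_at passed when each control or line 4 replicate was left out in turn, in fits where the remaining array of that group is assumed to vary like the replicated group. Without the trend AT4G16146 did not pass (limma adjusted p = 0.05003). With A3-1 counted as control or as line 1, 0 of the 23 members passed in limma and 0 had an unadjusted p under 0.05, as the low A3-1 values then enter the error and the median SE of the members grew from 0.10 to 1.08 and 0.84.

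**Figure D3:**
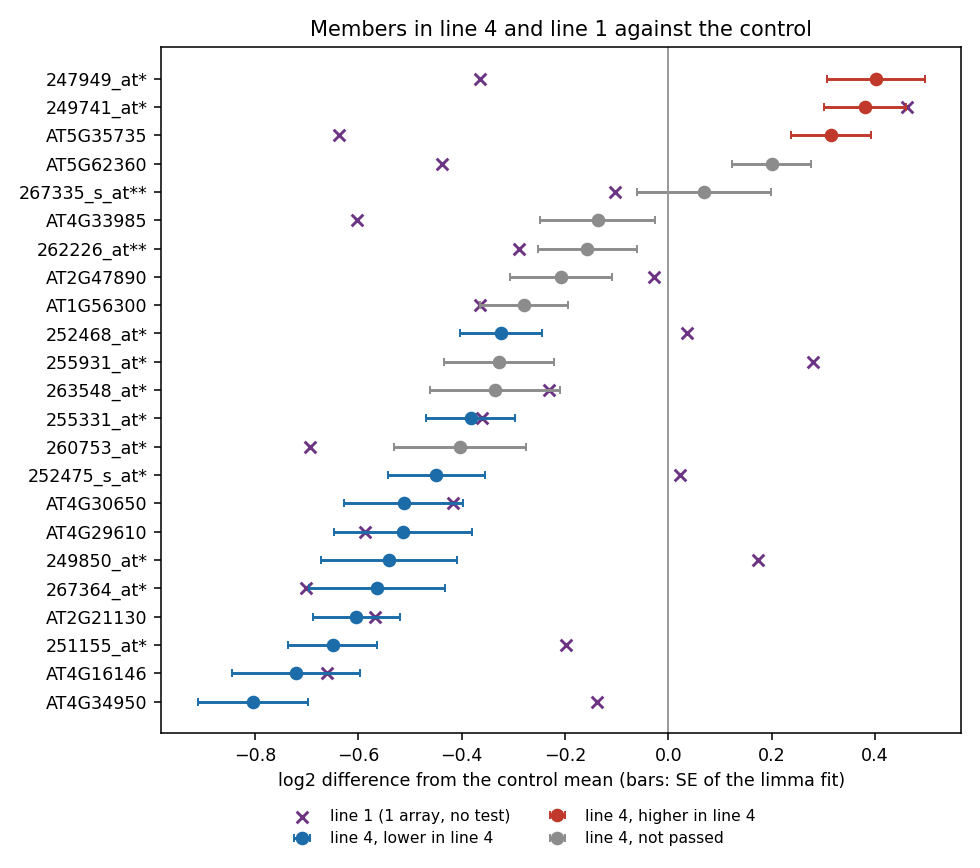
Log2 difference of each of the 23 members from the control mean, for line 4 (circles with SE of the limma fit, n = 2 against 2, coloured by call at an adjusted p of 0.05) and for line 1 (crosses, 1 array, no test). The calls were 11 lower and 3 higher in line 4, with 9 not passing, and the crosses lie between -0.70 and 0.46.

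Line 1 was measured on 1 array, so its values have no error, and the rule had kept them from lying far below the control. On that array 17 of the 23 members read below both controls, 3 between them and 3 above them. Of the 9329 probe sets at 50 units or more on the grouped arrays, 35.8% read below both controls there and 46% above both. At 5 members line 4 and line 1 lay on opposite sides of both controls, as did 17.1% of those 9329. The difference from the control mean had a median of -0.36 on the log2 scale and ran from -0.70 at probe set 267364_at to 0.46 at 249741_at. Over the same 9329 probe sets the median was 0.04. Line 4 and line 1 share their control arrays, so the 2 sets of differences are not independent of each other. AT4G16146 read 163.2 and 191.5 in line 4 and 184.4 in line 1, and AT2G21130 read 257.7 and 245.1 in line 4 and 257.8 in line 1, in both cases below the controls.

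The genes set aside by the rule shared the low A3-1 values. COR27 read 288.9 and 266.2 in the control, 141.2 and 137.5 in line 4, 230.5 in line 1 and 5.3 on A3-1. AT1G07050, a gene for a CCT-domain protein, read 4.1 on A3-1 but 95.6 in line 1 against 152.0 and 143.8 in the control, which fails the line 1 condition. GI, whose protein links the clock to flowering, read 85.5 on A3-1 and 305.8 to 333.4 on the others, and at 28.0% of the lowest it missed the threshold.

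Known gene lists for the processes named above were set beside the members. They were written with earlier results of these data known, and none of the 23 members is on any of them. Of 200 listed loci, 34 had a probe set named to them alone in the annotation used, and 31 of these were bright enough for the fit and are called measured here. In the list of evening-phased clock genes, the 4 measured of 16 were the same COR27, AT4G33980, AT1G07050 and GI, and all 4 were at least 2-fold lower on A3-1 than the median of the other arrays. The share of all 13647 probe sets kept that were at least 2-fold lower was 4.54%. As these 4 are the genes that the rule sets aside, with their low values given above, their count is no separate observation. It says nothing of the listed evening-phased genes that were not measured. Of the morning-phased list of 20, the measured RVE6 and RVE5 differed by 0.14 and 0.33 on the log2 scale. CDF5, a repressor of flowering that is expressed in the morning, was too dim on the grouped arrays to be kept, with 8.7 and 27.3 in the control, 33.4 and 28.1 in line 4 and 64.8 in line 1, and read 160.1 on A3-1. No time of harvest is given in the sources used here, and the part of time of day was not tested.

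PWD and DPE1, from the list of starch breakdown genes, were also low on A3-1, at a smaller ratio than the members. PWD, a kinase that phosphorylates starch before it is broken down, read 438.0 and 454.9 in the control, 362.9 and 396.0 in line 4, 435.0 in line 1 and 98.0 on A3-1. DPE1, an enzyme that acts on short sugar chains from starch, read 244.0 and 233.5 in the control, 181.3 and 167.8 in line 4, 220.2 in line 1 and 63.4 on A3-1. These were the 2 measured genes of 14 listed, so nothing is known here of the rest of the list. Both were at least 2-fold lower on A3-1 than the median of the other arrays, as were 4.54% of all 13647 probe sets kept. In line 4 DPE1 fell by 0.45 ± 0.09 (limma adjusted p = 0.00752) and PWD stood at -0.24 (0.0768).

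In the cold response list 4 of 5 measured genes were at least 2-fold lower on A3-1, COR15A, COR15B, LTI30 and STZ. Of all 13647 probe sets kept, 4.54% were at least 2-fold lower, and their median difference was 0.05 on the log2 scale. In line 1 these 4 genes read low as well, with COR15A at 155.6, COR15B at 402.2, LTI30 at 284.3 and STZ at 237.0. The control read at least 1299.6, 1260.6, 784.8 and 1545.0 at them. COR15B alone of the 4 met the ratio on A3-1 and was left out by the line 1 condition, while the others missed the ratio. The touch and calcium list had 2 of 4 measured genes at least 2-fold lower on A3-1, CML38 and CML23, and a median of -1.14. CML37 and CML39 were named but, like CDF5, too dim by their mean over the grouped arrays to be kept. CML37 read 50.4 and 54.2 in the control, 73.3 and 82.9 in line 4, 0.9 in line 1 and 0.5 on A3-1. CML39 read at most 3.2 on each of the arrays. Of the stress-responsive regulators WRKY53 was lower (-1.84) and WRKY22 at -0.02. CML38, CML23 and WRKY53 also read low in line 1, at 145.1, 26.2 and 21.6, against at least 542.3, 98.0 and 83.2 in the control. At WRKY53 line 1 was below the 24.2 of A3-1. No measured gene of the heat shock list (2 genes, median -0.18) or of the phenylpropanoid and flavonoid list (3 genes, median 0.13) was 2-fold apart. The jasmonate list and the dark and sugar starvation list had no gene named in the annotation used and were not analysed here.

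Markers of seedling organs lay within 2-fold of the median of the other arrays on A3-1. The green tissue genes LHCB4.1, LHCB4.2 and RCA, for light harvesting and the activation of Rubisco, read 3660.3, 3054.5 and 3019.8 on A3-1 and lay at 0.10, 0.20 and 0.06 on the log2 scale from the median of the others. The root genes EXPA7, EXPA18 and PYK10 lay at -0.26, 0.49 and -0.23. FAMA, a regulator of guard cells, read 66.5 on A3-1 against 26.5 to 39.1, a difference of 0.95. Seed storage, meristem and flower markers had no named probe set in the annotation used and were not analysed here. In whole seedlings, fewer cells of a type and less RNA per cell cannot be told apart.

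**Figure D4:**
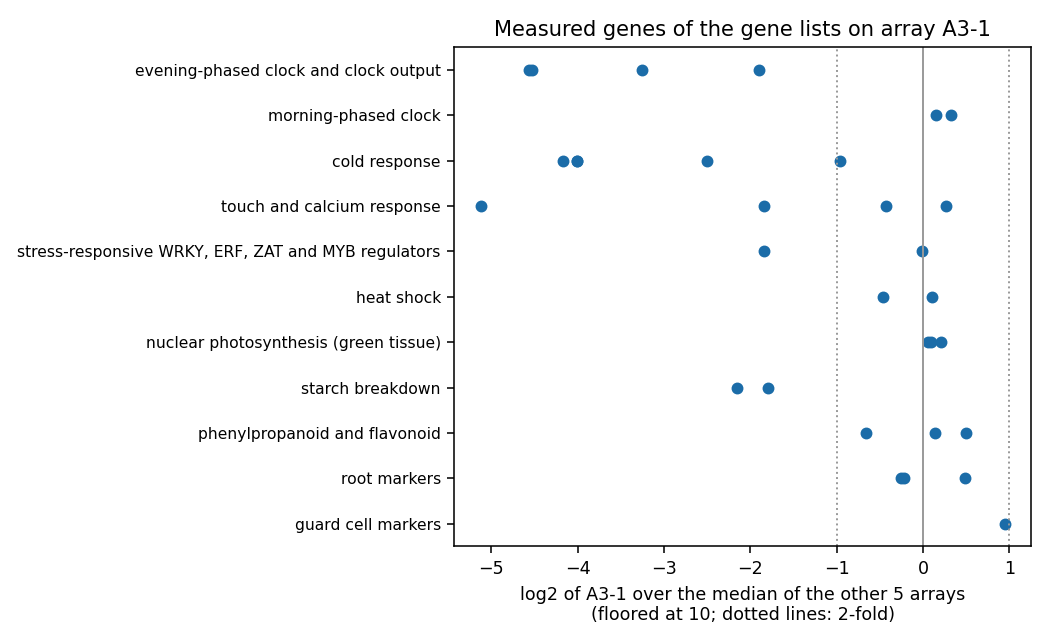
Log2 ratio of A3-1 to the median of the other 5 arrays (floored at 10) for the 31 measured genes of 11 gene lists, 1 point a gene, with dotted lines at 2-fold. All 4 evening-phased genes, which are those the rule sets aside, 4 of 5 cold response genes and both starch breakdown genes lie beyond 2-fold on the low side. So do CML38 (-5.12, the lowest point) and CML23 of the touch and calcium list, and WRKY53 of the stress-responsive regulators. Of all 13647 probe sets kept, 4.54% lie there as well. The photosynthesis, root and guard cell genes lie within 2-fold.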

How the data were processed

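The deposited values are probe set intensities on a linear scale from 6 Affymetrix ATH1 arrays of biotin-labelled RNA, per the labels. The sources used here do not give the authors' summarisation of probes; every array has a 2% trimmed mean of 100.01. The 22810 probe sets include 64 controls, which were dropped, and the platform annotation gives 1 gene for 13513, several for 503 and none for 8730, with symbols from RefSeq's TAIR10.1 gene table. Members and lists were chosen with earlier results of these data known. The rule used values floored at 10.

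Line 4 was compared with the control in limma 3.58.1 (R 4.3.3; lmFit, eBayes with a variance trend, Benjamini-Hochberg adjustment) on log2 values of 5 arrays in 3 groups, with 2 residual degrees of freedom. Values of 0 were raised to 0.1, and the dimmest 40% were left out, which kept 13647. A3-1 entered no test except as a named alternative. All named members, the 4 genes set aside, 3 probe sets on each side of the threshold and up to 4 genes of each list were named; relatives, neighbours and the unnamed probe sets given in full were chosen after their values were seen. The number of arrays limits the precision. No sequence was used.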

Additional observations from a re-analysis of the deposited data

Results flagged for a closer look

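At 5 members both line 4 arrays lay on one side of the control arrays and the line 1 array on the other, a pattern found at 17.1% of the 9329 probe sets with at least 50 units on the grouped arrays. The difference between the lines was not tested, since line 1 has 1 array and both lines share the controls. AT5G62360 (0.20 on the log2 scale, not passing in limma), AT5G35735 (0.32) and probe set 247949_at (0.40) were above both controls in line 4 and below both in line 1. Probe sets 249850_at (-0.54) and 255931_at (-0.33, not passing) were below both controls in line 4 and above both in line 1.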

How the results depend on the processing

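The number of members was 23 and lay between 16 and 29 under a floor of 1 or 20, a 5-fold ratio, a minimum of 30 or 100, quantile normalization and no condition on the line 1 array. It was 56 at a 3-fold ratio, and over the leaving out of each grouped array it ran from 20 to 137, the highest without the line 1 array. Members passing in line 4 (14) ranged from 6 to 14 and probe sets passing (2111) from 1026 to 2035 when 1 replicate was left out. They were 6 and 1256 with no filter, 3 and 1116 with no trend, 0 and 88 with A3-1 as control, and 0 and 183 with A3-1 as line 1; floored values, quantile normalization and the 4 control and line 4 arrays alone left both within 1.5 times. With the replicate number as a block 18 members and 2638 probe sets passed; same-numbered arrays correlated at -0.07 in their deviations, so the numbers are not shown to pair the samples. With A3-1 as control the sign turned, by construction, for AT1G56300 (1.36), AT4G34950 (1.11), 255331_at (1.12), 267364_at (0.96), AT4G30650 (0.80), 249850_at (0.75), 263548_at (0.82), AT4G33985 (1.43), AT4G16146 (0.47), 260753_at (0.89), 252468_at (0.66), 251155_at (0.39), AT2G21130 (0.37), 252475_s_at (0.48), AT2G47890 (0.58), 255931_at (0.51), 262226_at (0.62) and AT4G29610 (0.36). For 267335_s_at, at 0.07 in the fit as reported, it turned to -0.017 without control replicate 1 and -0.023 without line 4 replicate 2, and the range over left-out replicates was -0.023 to 0.16. Values near the floor of the arrays limit the size of the A3-1 ratios.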
